A study of Mus musculus with 7 samples.

Results

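The genes that write, copy and erase DNA methylation were followed in whole testes of E14.5 mouse embryos with and without functional Glis3, a Krüppel-like zinc finger transcription factor. The set held 9 of the 24739 genes in the RefSeq FPKM table and was chosen by symbol: the maintenance methyltransferase gene Dnmt1 and its partner Uhrf1, the de novo genes Dnmt3a, Dnmt3b and Dnmt3l, the dioxygenase genes Tet1, Tet2 and Tet3, and Morc1. RNA-Seq libraries came from 3 wild-type (WT) and 4 Glis3 zf5/zf5 (Mutant) embryos on a C57BL/6 background, with 1 pair of testes per library. The zf5 allele lacks exon 4 and parts of the flanking introns in every cell that carries it, so the mutation was not limited to 1 cell type of the testis. All libraries were made from total RNA depleted of ribosomal RNA without poly-A selection, and values are FPKM, which scale fragments to transcript length and library size. FPKM sums ranged from 694243 to 1018678 per library, 18644 to 19081 genes were above 0, and the number of fragments behind each value is unknown.

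In mammals, methyl groups are copied onto the new DNA strand by DNMT1, which UHRF1 brings to hemimethylated sites. DNMT3A and DNMT3B place new methyl groups. DNMT3L has no catalytic activity of its own and stimulates both, and in fetal male germ cells it is required for the methylation of retrotransposons and of paternal imprints. TET proteins oxidize methylated cytosine, which starts its removal, and MORC1 is a germline protein needed to silence retrotransposons in male germ cells. Fetal male germ cells lose most of their methylation around the time they colonize the gonad and regain it later in the fetal testis, whereas Sertoli, Leydig and interstitial cells carry a somatic pattern. A whole testis library mixes all of these cells, and fewer cells of a type and less RNA per cell cannot be told apart in it.

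Glis3 itself had 7.63, 6.89 and 2.91 FPKM in the libraries labelled WT replicates 1, 2 and 3, and 3.86, 3.26, 2.9 and 2.66 FPKM in the 4 Mutant libraries in order of number. By this measure the library labelled WT replicate 3 lay within the Mutant range. The log2 fold change was -0.69 with all libraries (limma adjusted p = 0.268) and -1.09 without that library (adjusted p = 0.00992). Another measure of Glis3 placed that library between the other WT libraries and the Mutant ones. Reads of repeat loci in introns of Glis3, scaled to the library's total of such reads (CPM), were 359, 292 and 213 CPM in the WT libraries and 177, 166, 178 and 123 CPM in the Mutant ones, without overlap (log2 fold change -0.84, edgeR adjusted p = 0.0356). The zf5 allele lacks parts of the Glis3 introns, and what this adds to the difference was not tested. The edgeR call did not hold in every alternative with a filter on low counts. Adjusted p ranged from 0.000551 in DESeq2 to 0.182 in edgeR without WT replicate 1. Cpsf4l, the 1 gene past the threshold by FPKM, had 13.7, 9.34 and 7.5 FPKM in the WT libraries and 0.568 to 1.06 FPKM in the Mutant ones (limma adjusted p = 0.00547). It was picked with the library labelled WT replicate 3 counted as WT, so its values are no check of that label. For many results, values without the library labelled WT replicate 3 are given as well. The 12 germ cell markers looked at, among them Ddx4, Dazl and Pou5f1, were all detected, and their summed FPKM was 1178, 951 and 661 in the WT libraries against 503 to 587 in the Mutant libraries. All 12 had a lower Mutant mean. Their median log2 fold change was -0.90. None passed an adjusted p of 0.05 in limma with all libraries, and 9 had an unadjusted p under 0.05, against 17% of all genes tested. Without the library labelled WT replicate 3, 10 passed, against 5.15% of all genes tested. Ddx4, which encodes a germ cell RNA helicase, had 102, 94.7 and 53.1 FPKM in the WT libraries and 33.6 to 42.2 in the Mutant libraries. Markers of Sertoli cells (8 of 8) and of fetal Leydig cells (6 of 6) had higher Mutant means, with median log2 fold changes of 0.14 and 0.47. So did those of interstitial cells (5 of 5, median 0.16) and macrophages (6 of 6, median 0.23). The median over all genes tested was 0.01. None of these markers passed in limma with all libraries, and 0 of 8 Sertoli cell markers had an unadjusted p under 0.05. Endothelial, red blood cell, skeletal muscle, mesonephric and proliferation markers each went both ways.

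The members fell into 2 kinds of pattern. Dnmt1, Uhrf1, Dnmt3a, Dnmt3b, Tet1, Tet2 and Tet3 varied by 1.22-fold (Tet3) to 1.86-fold (Tet1) over the libraries, and their group means differed by at most 0.26 on the log2 scale. Among these, Tet1 had a residual SD above that of 85.3% of genes tested, Dnmt1 one above 72.8% and Tet3 one above 19.4%. Dnmt3l and Morc1 spanned a 97.4-fold and a 33.5-fold range over the 7 libraries, high in WT replicate 2 and near their lowest level both in Mutant replicates 3 and 4 and in the library labelled WT replicate 3. The Dnmt3l values in the latter libraries (0.0754 to 0.0826 FPKM) lay far under the 0.5 FPKM added before logs, so its fold range is loosely set. None of the 9 members passed an adjusted p of 0.05 in limma with Benjamini-Hochberg adjustment over 13988 genes, where 1 gene in all, or 0.00715%, passed. Unadjusted, 1 member (Uhrf1) had p under 0.05, against 17% of all genes tested (8.79% with a lower and 8.21% with a higher Mutant mean). In 2 members, Uhrf1 and Tet2, the groups did not overlap, against 14.9% of genes tested. The Mutant mean was lower for 7 members and higher for 2, and the median log2 fold change was -0.08, against 0.01 over all genes tested.

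**Figure D1:**
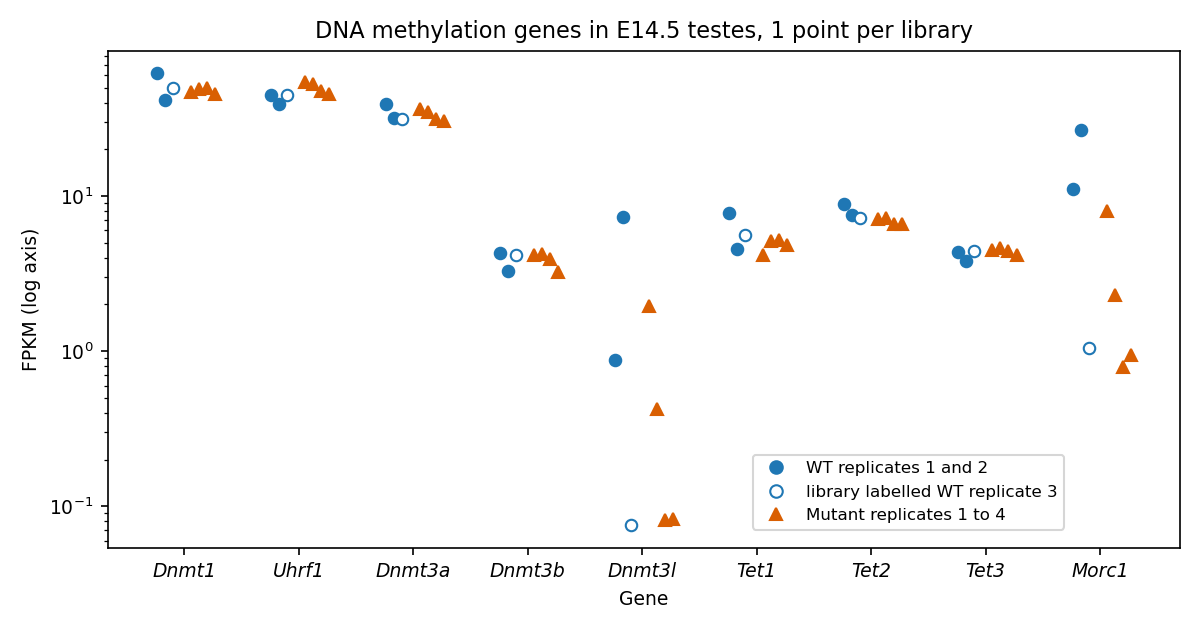
FPKM (log axis) of the 9 genes in each library, with circles for the libraries labelled WT (open for replicate 3) and triangles for the Mutant libraries. Points of 7 genes lie close together, whereas those of Dnmt3l run from 0.0754 to 7.35 and those of Morc1 from 0.795 to 26.6.

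By FPKM, the same 3 members led in every library. Dnmt1, Uhrf1 and Dnmt3a were the 3 highest members in all 7, and Dnmt3a lay below the other two each time. Dnmt1 and Uhrf1 overlapped in level over the libraries, with Uhrf1 the higher of the pair in Mutant replicates 1, 2 and 4. Tet2 lay above Tet1 and Tet3, and Tet3 above Dnmt3b, in every library. Morc1 ranked 4 of 9 in WT replicates 1 and 2 and in Mutant replicate 1, and 8 of 9 in the remaining libraries. Dnmt3l ranked 9 of 9 except in WT replicate 2, where it ranked 6.

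The maintenance pair was looked at first. Dnmt1 (chromosome 9, 20907206 to 20959888 of mm10, minus strand) had 61.8, 41.5 and 49.6 FPKM in the libraries labelled WT replicates 1 to 3, and 46.8, 49.0, 49.4 and 45.2 FPKM in the 4 Mutant libraries. The Mutant values all lay between the highest and the lowest WT value. Means were 51.0 ± 10.2 (SD, n = 3) for WT and 47.6 ± 1.93 (SD, n = 4) for Mutant, a log2 fold change of -0.08 (95% interval -0.35 to 0.19; limma, Benjamini-Hochberg adjusted p = 0.763).

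Uhrf1 (chromosome 17, 56303337 to 56323486, plus strand) encodes the reader that recruits DNMT1. It had 45.0, 39.2 and 44.6 FPKM in the WT libraries and 54.6, 52.4, 47.9 and 45.5 FPKM in the 4 Mutant libraries. Every Mutant value was above every WT value with the nearest pair close together, and groups did not overlap in that direction in 7.31% of all genes tested. Means were 42.9 ± 3.23 (SD, n = 3) for WT and 50.1 ± 4.13 (SD, n = 4) for Mutant. The log2 fold change was 0.22 (SE 0.08, 95% interval 0.03 to 0.41), which did not pass the limma test after Benjamini-Hochberg adjustment (p = 0.0273, adjusted p = 0.244) nor the two-sided exact permutation test over all 35 ways to assign 3 of the 7 libraries (p = 0.0571). It was 0.25 without the library labelled WT replicate 3 (adjusted p = 0.165 in limma). UHRF1 is known to be most abundant in dividing cells. The 15 proliferation markers looked at had a median log2 fold change of -0.02, with summed FPKM of 1195 to 1319 in the WT libraries and 1194 to 1280 in the Mutant libraries, and their part in the difference of Uhrf1 was not tested.

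Taken as a ratio to Dnmt1 within each library, Uhrf1 did not overlap between genotypes. The log2 ratio of Uhrf1 to Dnmt1 was -0.45, -0.08 and -0.15 in the WT libraries and 0.22, 0.10, -0.04 and 0.01 in the Mutant libraries, so that all Mutant ratios were above all WT ratios. The difference was 0.30 (exact permutation test, two-sided, p = 0.0286, the smallest value that 3 against 4 libraries allow), which did not pass after Benjamini-Hochberg adjustment over the 6 ratios between members (0.0571). It was 0.34 without the library labelled WT replicate 3 and 0.19 without WT replicate 1 (exact p = 0.133), where the exact test cannot give a p below 0.0667.

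The de novo genes differed in level and in steadiness. Dnmt3a (chromosome 12, 3806980 to 3914443, plus strand) supplied 74.9 to 90.1% of the summed FPKM of the 3 Dnmt3 genes in each library. Its values were 39.1, 31.7 and 31.2 FPKM in the WT libraries and 36.5, 34.9, 31.6 and 30.3 FPKM in the Mutant libraries. The groups overlapped over nearly their whole range. Means were 34.0 ± 4.43 (SD, n = 3) for WT and 33.3 ± 2.87 (SD, n = 4) for Mutant, with a log2 fold change of -0.03 (95% interval -0.25 to 0.20; limma adjusted p = 0.922).

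Dnmt3b (chromosome 2, 153649449 to 153687730, plus strand) was present at 4.31, 3.27 and 4.15 FPKM in the WT libraries and 4.16, 4.24, 3.92 and 3.24 FPKM in the Mutant libraries. The lowest library of each group lay at the same level. Means were 3.91 ± 0.562 (SD, n = 3) for WT and 3.89 ± 0.455 (SD, n = 4) for Mutant, and the log2 fold change of -0.0042 had a 95% interval of -0.29 to 0.28 (limma adjusted p = 0.99). The log2 ratio of Dnmt3b to Dnmt3a was likewise close between groups, with means of -2.97 ± 0.18 (SD, n = 3) for WT and -2.95 ± 0.08 (SD, n = 4) for Mutant.

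Dnmt3l (chromosome 10, 78042287 to 78063622, plus strand), the germline cofactor, behaved in another way. Its bases before the start of the gene are shown beside those of Dnmt3a and Dnmt3b, because the 3 related genes differ there in CG dinucleotides, the sites that the encoded proteins act on. Sequences are from RefSeq (GRCm38.p6), 250 bases 5′ to 3′ on the plus strand, and capitals mark CG.
Dnmt3a, chr12:3806730-3806979 (+): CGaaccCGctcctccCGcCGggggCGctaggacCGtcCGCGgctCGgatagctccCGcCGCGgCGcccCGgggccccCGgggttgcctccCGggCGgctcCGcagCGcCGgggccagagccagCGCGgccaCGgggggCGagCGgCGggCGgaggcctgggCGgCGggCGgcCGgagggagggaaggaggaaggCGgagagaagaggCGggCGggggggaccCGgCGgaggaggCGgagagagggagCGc
Dnmt3b, chr2:153649199-153649448 (+): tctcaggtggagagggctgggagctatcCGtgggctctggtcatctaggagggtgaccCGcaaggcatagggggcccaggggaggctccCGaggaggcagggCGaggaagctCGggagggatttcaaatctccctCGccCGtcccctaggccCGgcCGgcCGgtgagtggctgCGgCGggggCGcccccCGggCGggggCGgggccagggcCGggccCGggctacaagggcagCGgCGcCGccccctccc
Dnmt3l, chr10:78042037-78042286 (+): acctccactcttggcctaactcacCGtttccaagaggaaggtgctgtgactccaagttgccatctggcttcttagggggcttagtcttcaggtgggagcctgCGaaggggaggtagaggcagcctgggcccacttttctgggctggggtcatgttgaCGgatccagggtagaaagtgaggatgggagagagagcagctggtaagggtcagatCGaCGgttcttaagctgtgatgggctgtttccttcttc
The Dnmt3a stretch held 38 CG, the Dnmt3b stretch 21 and the Dnmt3l stretch 5. RefSeq windows of 300 bases, from 250 before to 50 after a start, were found for 8 members (15 windows, with none for Morc1) and had a median of 7 CG over all 32851 windows of the table. The 3 Dnmt3l windows held 6, 4 and 3 CG, and 47.9%, 38.0% and 31.4% of all windows held as few or fewer. Tet2 (57 CG), Tet3 (22), Tet1 (17) and both Uhrf1 windows (12 and 33) were above the median, as was each Dnmt3a (46, 47 and 18) and Dnmt3b (30) window. Dnmt1 had windows of 33, 12 and 2 CG. Methylation of these bases was not measured.

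Dnmt3l had 0.883, 7.35 and 0.0754 FPKM in the libraries labelled WT replicates 1, 2 and 3, and 1.95, 0.424, 0.0813 and 0.0826 FPKM in the 4 Mutant libraries. WT replicate 2 stood far above the others, Mutant replicate 1 was second, and the library labelled WT replicate 3 was the lowest of all 7. In WT replicate 2 the gene made up 17.4% of the summed Dnmt3 FPKM, against 0.213 to 4.57% in the other libraries. Means were 2.77 ± 3.99 (SD, n = 3) for WT and 0.634 ± 0.89 (SD, n = 4) for Mutant. The log2 fold change was -0.98 with a 95% interval of -2.91 to 0.96 (limma adjusted p = 0.583), and the residual SD of 1.43 on the log2 scale exceeded that of 99.6% of genes tested. Without the library labelled WT replicate 3 the log2 fold change was -1.82 (adjusted p = 0.209), and without WT replicate 2 it was 0.07 (adjusted p = 0.964), so the direction rested on 1 library. Over all alternatives the adjusted p ranged from 0.123 to 0.964.

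**Figure D2:**
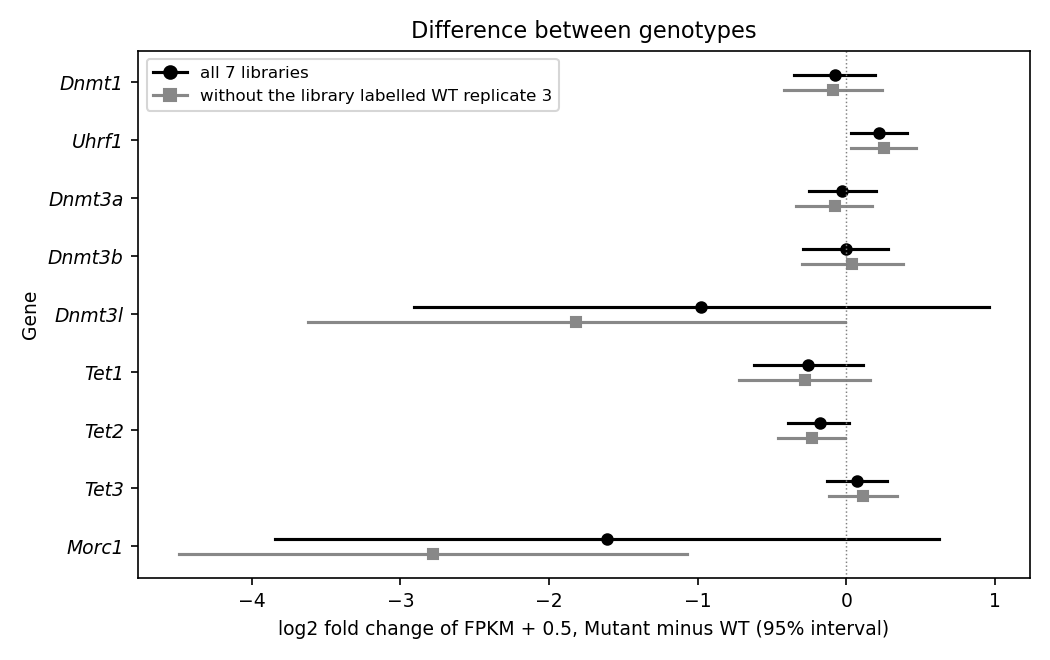
Log2 fold change (Mutant minus WT) of FPKM + 0.5 with its 95% interval from limma for each gene, with all 7 libraries (circles) and without the library labelled WT replicate 3 (squares). The intervals of Dnmt3l and Morc1 are several times wider than those of the other genes, and without that library the interval of Morc1 runs from -4.49 to -1.07.

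Among the erasers, Tet2 was the highest in every library, with 40.6 to 47.4% of the summed Tet FPKM. Tet2 (chromosome 3, 133463677 to 133544390, minus strand) had 8.91, 7.52 and 7.27 FPKM in the WT libraries and 7.15, 7.2, 6.57 and 6.62 FPKM in the Mutant libraries. All Mutant values were below all WT values, with the nearest pair close together, as in 7.59% of genes tested. Means were 7.9 ± 0.885 (SD, n = 3) for WT and 6.89 ± 0.335 (SD, n = 4) for Mutant. The log2 fold change of -0.18 (SE 0.09, 95% interval -0.39 to 0.02) did not pass the limma test (adjusted p = 0.343), while the exact permutation test gave its smallest possible value, p = 0.0286, unadjusted for the other members. Without the library labelled WT replicate 3 the log2 fold change was -0.23 (limma adjusted p = 0.197), with no overlap.

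Tet1 (chromosome 10, 62804570 to 62880014, minus strand) had 7.72, 4.57 and 5.61 FPKM in the WT libraries and 4.16, 5.15, 5.2 and 4.81 FPKM in the Mutant libraries. WT replicate 1 was the highest, and the other WT values fell within or near the Mutant range. The log2 fold change was -0.26 (95% interval -0.62 to 0.11; limma adjusted p = 0.444), with means of 5.97 ± 1.61 (SD, n = 3) for WT and 4.83 ± 0.479 (SD, n = 4) for Mutant.

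Tet3 (chromosome 6, 83362374 to 83441678, minus strand) was the steadiest member. It had 4.36, 3.79 and 4.43 FPKM in the WT libraries and 4.5, 4.62, 4.42 and 4.14 FPKM in the Mutant libraries. The groups overlapped, with means of 4.19 ± 0.352 (SD, n = 3) for WT and 4.42 ± 0.205 (SD, n = 4) for Mutant, and the log2 fold change was 0.07 (95% interval -0.13 to 0.27; limma adjusted p = 0.715).

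Measured against Tet3, both other Tet genes were lower in the Mutant libraries. The log2 ratio of Tet2 to Tet3 was 0.95, 0.90 and 0.66 in the WT libraries and 0.61, 0.59, 0.52 and 0.62 in the Mutant libraries, a difference of -0.25. The log2 ratio of Tet1 to Tet3 was 0.76, 0.24 and 0.31 against -0.10, 0.14, 0.21 and 0.19, a difference of -0.33. Neither ratio overlapped between groups, and each had p = 0.0286 in the exact permutation test (0.0571 after adjustment over the 6 ratios). Differences were -0.34 and -0.39 without the library labelled WT replicate 3. Leaving out WT replicate 1 brought them to -0.19 and -0.16, the latter with an exact p of 0.267.

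**Figure D3:**
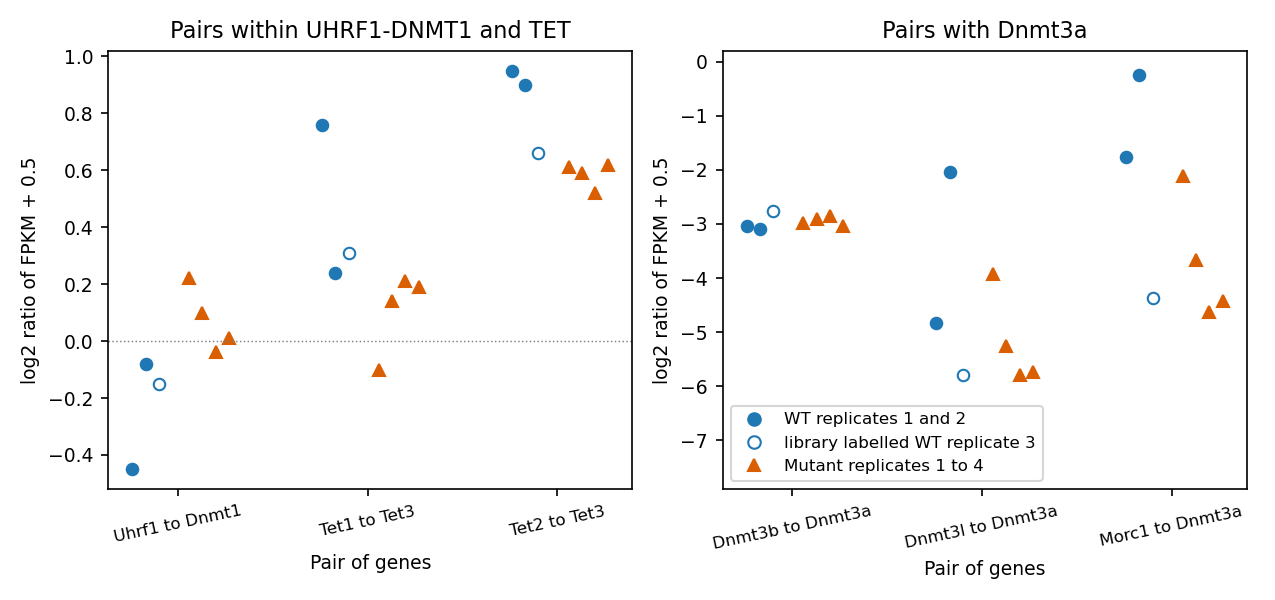
Log2 ratio of FPKM + 0.5 between pairs of genes in each library, with symbols as in the plot of FPKM by gene. The Mutant libraries lie above all WT libraries for Uhrf1 to Dnmt1 and below them for Tet1 to Tet3 and Tet2 to Tet3, and the groups overlap for the 3 ratios to Dnmt3a.

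Morc1 (chromosome 16, 48431237 to 48630905, plus strand) had 11.1, 26.6 and 1.05 FPKM in the libraries labelled WT replicates 1, 2 and 3, and 8.05, 2.3, 0.795 and 0.94 FPKM in the 4 Mutant libraries. WT replicates 1 and 2 were above every Mutant library, and the library labelled WT replicate 3 was below Mutant replicates 1 and 2. Means were 12.9 ± 12.9 (SD, n = 3) for WT and 3.02 ± 3.42 (SD, n = 4) for Mutant. The log2 fold change was -1.61 (SE 0.98, 95% interval -3.84 to 0.62; limma adjusted p = 0.429), with a residual SD larger than that of 99.8% of genes tested. Without the library labelled WT replicate 3 it was -2.78 (SE 0.74, adjusted p = 0.0724), and the groups did not overlap, as in 17.1% of genes tested in that direction. Without WT replicate 2 it was -0.72 (adjusted p = 0.718). With neither the library labelled WT replicate 3 nor Mutant replicate 1 it was -3.36 and passed the threshold (adjusted p = 0.0115), as did 3.09% of genes in that direction. That choice was made after the data were seen. It took out the lowest WT and the highest Mutant value of Morc1, so a larger difference was fixed in advance.

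Reads of retrotransposon loci inside introns gave a readout of the same genes that FPKM over RefSeq exons do not hold. The deposited counts of LINE, SINE and LTR loci lying in introns of 1 gene only were summed per gene, scaled to the library's total of such reads with TMM factors (CPM), and tested with edgeR. These reads come from unspliced RNA of the host gene or from transcription of the repeats themselves, and strand was not used. The 228 such loci of Morc1 held 182, 214 and 29 reads in the libraries labelled WT and 74, 33, 34 and 36 reads in the Mutant libraries. Scaled, these were 72.1, 117 and 13.5 CPM against 40.1, 18.9, 19.7 and 19.2 CPM. WT replicates 1 and 2 were again the highest and Mutant replicate 1 next, and the library labelled WT replicate 3 was the lowest.

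With all libraries the log2 fold change of Morc1 intronic reads was -1.44 (SE 0.46), which did not pass in edgeR's quasi-likelihood test after Benjamini-Hochberg adjustment over 11546 genes (adjusted p = 0.217), where 0.199% of genes passed. With a filter on low counts and all libraries, none of the 8 members tested passed in edgeR or DESeq2. Unadjusted, Morc1 was the 1 of 8 members tested with p under 0.05, against 12% of genes tested. Without the library labelled WT replicate 3 the log2 fold change was -1.93 (SE 0.26, adjusted p = 0.00141), and 1.17% of genes passed, 0.821% in that direction. Without a filter on low counts and with all libraries, Morc1 was among 352 genes that passed in edgeR (adjusted p = 3.39e-14). Over the alternatives with a filter on low counts the adjusted p of Morc1 ranged from 0.000111 to 0.684. The lowest came from leaving out both the library labelled WT replicate 3 and Mutant replicate 1, a choice made after seeing the data. In 4 equal parts of the gene from its start, WT replicates 1 and 2 had 17.8 and 35.6 CPM in the first, 25.4 and 42.1 in the second, 19.0 and 25.7 in the third and 9.9 and 13.7 in the last, above every other library in each part. Mutant replicate 1 stood above the other Mutant libraries in the first 2 parts (15.7 and 16.8 CPM), and not in the third (3.25 CPM) or the last (4.33 CPM).

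The intronic reads of the other members overlapped between genotypes or differed little. Log2 fold changes were -0.01 for Dnmt1 and Dnmt3a, 0.04 for Tet1, -0.06 for Tet2 and -0.09 for Tet3. Uhrf1 had 81.2, 63.5 and 73.7 CPM in the WT libraries and 81.8, 97.7, 89.2 and 76.9 CPM in the Mutant ones, which gave a log2 fold change of 0.24 (edgeR adjusted p = 0.48). The direction was that of its FPKM, but here the groups overlapped. Dnmt3b had 19.8, 17.0 and 21.0 CPM against 17.9, 26.3, 25.5 and 25.6 CPM, a log2 fold change of 0.30 (edgeR adjusted p = 0.616). The lower intronic level of Tet2 was within the spread of the libraries, with 82.8, 69.5 and 89.1 CPM against 87.7, 70.3, 65.5 and 86.6 CPM (edgeR adjusted p = 0.918). Dnmt3l had 7 reads in all over its 34 loci, too few for the test, with 1, 2 and 2 in the WT libraries and 2, 0, 0 and 0 in the Mutant libraries.

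**Figure D4:**
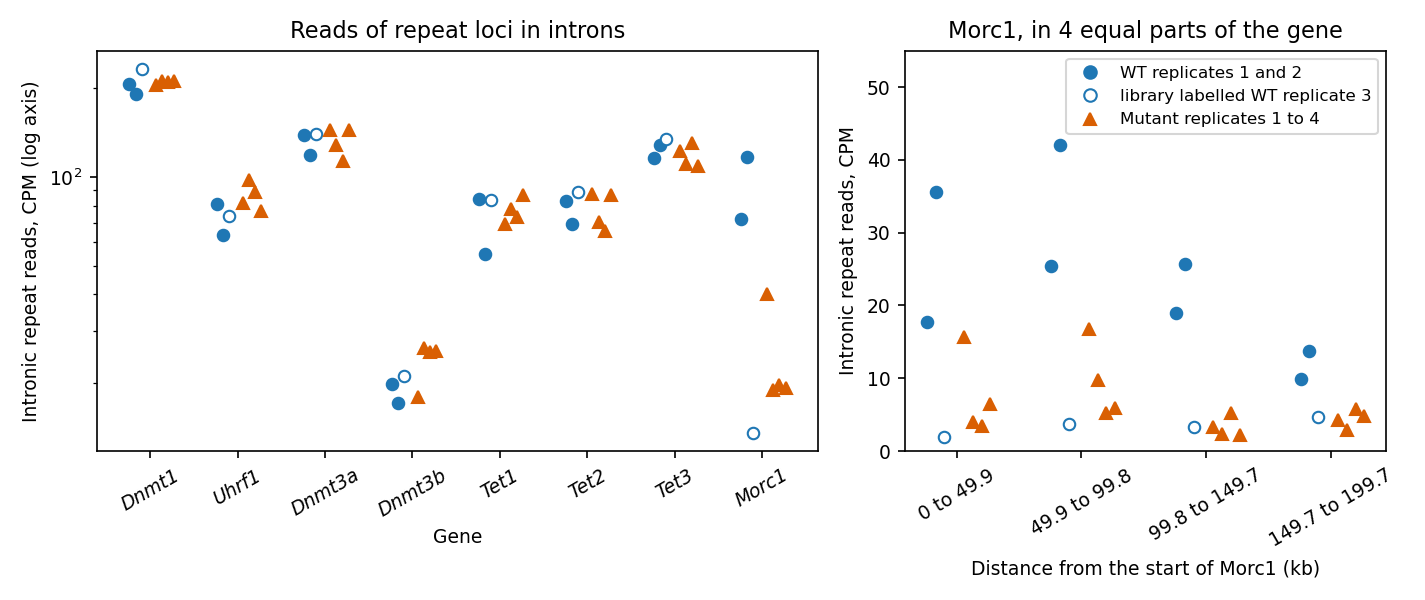
Left, intronic repeat reads (CPM, log axis) of 8 genes in each library, and right, those of Morc1 (CPM, linear axis) in 4 equal parts of the gene by distance from its start in kb, with symbols as in the plot of FPKM by gene. WT replicates 1 and 2 lie above the other 5 libraries along the whole of Morc1, and the other genes vary little.

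The members were then set against the germ cell markers of the same library. The log2 ratio to the mean of the 12 markers was higher in the Mutant libraries for Dnmt1 (difference 0.82), Dnmt3a (0.88), Dnmt3b (0.90), Uhrf1 (1.13), Tet2 (0.72) and Tet3 (0.98). These differences share 1 denominator, whose mean log2(FPKM + 0.5) was 4.29 to 5.44 in the WT libraries and 3.93 to 4.2 in the Mutant libraries, and so are given as values without a test. These 6 differences were each 1.01 or more without the library labelled WT replicate 3. For Tet1 the difference was 0.65. For Dnmt3l and Morc1 the differences were -0.07 and -0.70, with overlapping groups. WT replicates 1 and 2 were the highest libraries for Morc1 as for the marker mean. Both genes were highest in WT replicate 2, whereas the marker mean was highest in WT replicate 1 (5.44, against 5.17 in WT replicate 2). Single markers differed in which library was highest. Dppa4, Dnd1, Nanos3 and Sycp3, singled out after their values were seen, were highest in WT replicate 2 and, of the Mutant libraries, in replicate 1. Sycp3 had 30.1, 32.9 and 7.05 FPKM in the WT libraries and 18, 11.9, 6.92 and 7.06 FPKM in the Mutant libraries. The remaining markers, among them Ddx4 and Dazl, were highest in WT replicate 1, and the groups of Ddx4 and Dazl did not overlap. The log2 ratio of Morc1 to the markers was -1.90, -0.41 and -3.66 in the WT libraries and -1.10, -2.52, -3.76 and -3.40 in the Mutant libraries. The library labelled WT replicate 3 had the highest marker sum after WT replicates 1 and 2 yet one of the lowest ratios, and Mutant replicate 1, with a marker sum like that of the other Mutant libraries, had the highest ratio after WT replicate 2. That of Dnmt3l was highest in WT replicate 2 (-2.20) and Mutant replicate 1 (-2.91) and lowest in the library labelled WT replicate 3 (-5.09).

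**Figure D5:**
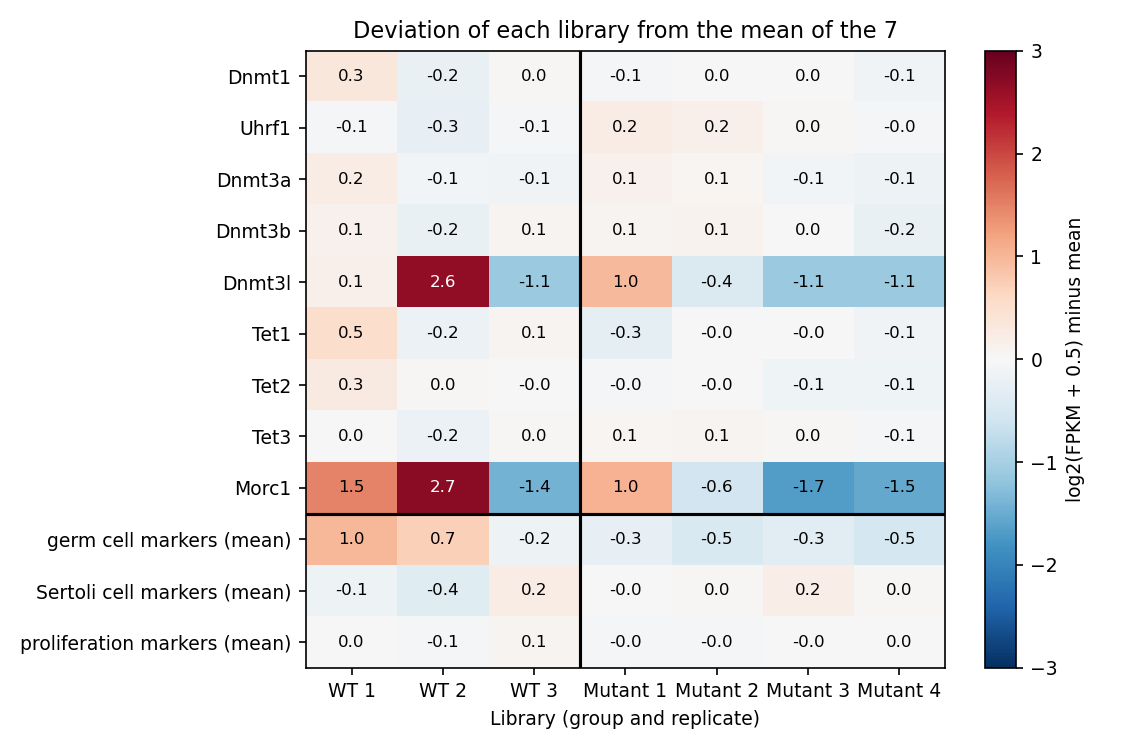
Log2(FPKM + 0.5) of each gene, and of the mean of the germ cell, Sertoli cell and proliferation markers, in each library as the deviation from the mean of all 7 (colour and printed value; WT 3 is the library labelled WT replicate 3). Dnmt3l and Morc1 are high in WT replicate 2 and Mutant replicate 1 (Morc1 also in WT replicate 1) and low in the library labelled WT replicate 3 and Mutant replicates 3 and 4. The mean of the germ cell markers is high in WT replicates 1 and 2 and lower in the other 5.

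The genes whose pattern over the 7 libraries was nearest to each member were found by the root mean square (RMS) difference of centred log2 values. For Dnmt3l they were Sohlh1 (0.22), which encodes a germ cell transcription factor, and Fabp9 (0.35), which encodes a testis fatty acid-binding protein. Sohlh1 had 1.22, 6.49 and 0.0673 FPKM in the WT libraries and 2.96, 0.58, 0.255 and 0.112 FPKM in the Mutant libraries. For Morc1 they were Gtsf1 (0.27), a piRNA pathway gene, and Rhox10 (0.27), a homeobox gene of the X-linked Rhox cluster. Gtsf1 had 10.5, 33.5 and 0.551 FPKM in the WT libraries and 7.92, 2.1, 0.459 and 0.864 FPKM in the Mutant libraries. Dnmt3l was the gene ranked 18 for Morc1, and Morc1 the gene ranked 27 for Dnmt3l, each at an RMS difference of 0.59. The likeness is a description over 7 libraries that share depth and cell mixture.

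The nearest genes of the other members were Msl1 and Incenp for Dnmt1, Rab3a and Chpf2 for Uhrf1, Deaf1 and Srebf2 for Dnmt3a, and Unc45a and Ehd2 for Dnmt3b. For the Tet genes they were Ddx54 and Dusp9 for Tet1, Cacnb3 and Kdm3b for Tet2, and Idh3a and Pkd2 for Tet3. RMS differences of these pairs were 0.01 to 0.06, where the members themselves varied by 0.08 to 0.24.

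Genes that work with the members were described from 7 lists of 63 genes, of which 58 were tested. None passed the threshold in limma with all libraries, 14 had an unadjusted p under 0.05, where 17% of all genes tested did, and 5 (Tex15, Kdm1b, Gadd45g, Cxxc5 and Mtr) passed without the library labelled WT replicate 3, where 5.15% of all genes did. Gadd45g, a stress response gene linked to demethylation, was named for this after its values were seen. The Mutant mean was lower for 38 and higher for 20, with a median log2 fold change of -0.06. The partners of maintenance methylation were lower for 5 of 8, with a median of -0.06. Hells, which encodes a chromatin remodeller needed for methylation, had 112, 87.6 and 102 FPKM in the WT libraries and 68.3, 75.3, 83.3 and 76.7 FPKM in the Mutant libraries, without overlap (log2 fold change -0.40, limma adjusted p = 0.169). Usp7, which encodes the deubiquitinase that stabilizes UHRF1 and DNMT1, had a log2 fold change of -0.17 (adjusted p = 0.285).

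All 10 tested genes that guide de novo methylation or shape its chromatin had a lower Mutant mean, with a median of -0.21. Ehmt2, which encodes a histone H3 lysine methyltransferase, had a log2 fold change of -0.31 (limma adjusted p = 0.244), and Kdm1b, a histone demethylase gene, one of -0.33 (adjusted p = 0.267; 0.0246 without the library labelled WT replicate 3). Piwil4 and Tex15, whose products direct methylation to retrotransposons through piRNAs, were singled out after their values were seen. Piwil4 had 2.62, 11.2 and 0.268 FPKM in the WT libraries and 1.64, 0.369, 0.312 and 0.277 FPKM in the Mutant libraries. Tex15 had 23.5, 37.7 and 7.17 FPKM in the WT libraries and 15.5, 12, 7.89 and 7.53 FPKM in the Mutant libraries. Both were highest in WT replicate 2 and lowest in the library labelled WT replicate 3, as Dnmt3l was, with limma adjusted p of 0.366 and 0.423. Leaving that library out gave log2 fold changes of -2.54 (adjusted p = 0.0506) for Piwil4 and -1.49 (adjusted p = 0.0371) for Tex15.

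Of the relatives of Morc1, 3 were tested, with a median of -0.02. Morc2a had a log2 fold change of -0.22 and Morc4 one of 0.11 (limma adjusted p = 0.247 and 0.652), with ranges over the libraries far narrower than that of Morc1. Of 8 methyl-CpG readers 5 were lower, with Zbtb38 at -0.18 and Mbd2 at 0.15. Of 15 genes for the removal of oxidized or deaminated bases 9 were lower, with Parp1 at -0.30 and Lig3 at -0.17, both repair genes. Of 5 TET partners 4 were higher, with a median of 0.22. Among them Cxxc5, a CXXC zinc finger gene, had a log2 fold change of 0.23 (limma adjusted p = 0.252; 0.0486 without the library labelled WT replicate 3), and Idh1, whose product makes the 2-oxoglutarate that TET enzymes use, one of 0.33 (adjusted p = 0.268). Of 9 genes of methyl donor supply 6 were lower. Shmt1, a folate cycle gene, had 51.2, 51.8 and 52.5 FPKM in the WT libraries and 36.7, 31.9, 42.4 and 41.2 FPKM in the Mutant libraries (log2 fold change -0.45, limma adjusted p = 0.168). Mtr, the methionine synthase gene, had a log2 fold change of -0.56 (adjusted p = 0.18; 0.00593 without the library labelled WT replicate 3).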

How the data were processed

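RNA from 1 pair of E14.5 testes per library was sequenced (3 WT, 4 Mutant). The authors aligned reads to mm10 with TopHat2 2.0.12 and deposited FPKM per RefSeq gene from Cuffnorm, and they deposited counts of unique reads per RepeatMasker locus from HTSeq, not normalized. Both headers join the names of WT replicate 3 and Mutant replicate 1, and columns were assigned in the order written. The 9 members and all gene lists were chosen with earlier results of these data known.

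Genes were kept from a mean of 0.5 FPKM upward and tested on log2(FPKM + 0.5), which understates changes of low genes, with limma 3.58.1 (trend, two-sided) in R 4.3.3, Benjamini-Hochberg adjustment and a threshold of 0.05. Reads of 1389972 loci in introns of 1 gene only (GENCODE M21, bedtools 2.31.1) were summed per gene; sums with a mean of at least 10 reads were tested with edgeR 4.0.16 (quasi-likelihood, TMM). Intronic repeat reads per library ranged from 1706386 to 2527154, and arose without molecular identifiers. Two-sided exact permutation tests (35 assignments) were used for single values and ratios. Tests were tried on simulated data with known changes. Alternatives were other pseudocounts, filters, scalings, DESeq2 1.42.0, a replicate block and leaving out each library. Same-numbered libraries deviated with correlations of 0.198, -0.177 and 0.229, so numbers were not taken as pairs.

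Named genes were all members, Glis3, 3 germ cell markers, the 2 genes with the smallest p of each pathway list, and the 2 genes nearest to each member. Spocd1 was not matched and Adgre1 was found as Emr1. Other steps were run in Python 3.11.15.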

Additional observations from a re-analysis of the deposited data

Results flagged for a closer look

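The intronic repeat reads of Morc1 in Mutant replicate 1 (40.1 CPM, against 18.9 to 19.7 CPM in the other Mutant libraries) lay apart by a gap of 0.942 of the group's range on the log2 scale. Those of Dnmt3b in the same library (17.9 CPM, against 25.5 to 26.3 CPM) lay apart on the low side by 0.92 of the range on that scale. Both exceed the 95% critical value of Dixon's ratio for 4 libraries, which chance exceeds in about 5% of groups, and 17 groups of Mutant values were looked at.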

How the results depend on the processing

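With each library left out in turn, the number of members past the threshold stayed at 0 by FPKM and was 0 to 1 by intronic reads (Morc1, without the library labelled WT replicate 3), against 1 to 722 and 1 to 136 of all genes and 0 to 5 of the pathway genes. The log2 fold change of Glis3 ranged from -1.09 to -0.46 by FPKM. By intronic reads it ranged from -1.02 to -0.65, past the threshold only without the library labelled WT replicate 3. By FPKM, leaving out 1 library gave log2 fold changes of -0.22 to 0.07 for Dnmt1, -0.08 to 0.08 for Dnmt3a, -0.11 to 0.07 for Dnmt3b and -1.82 to 0.07 for Dnmt3l, so these changed direction, while Uhrf1 (0.16 to 0.27), Tet1 (-0.42 to -0.07), Tet2 (-0.23 to -0.10), Tet3 (0.01 to 0.11) and Morc1 (-2.78 to -0.72) kept theirs. By intronic reads, the ranges were -0.07 to 0.07 for Dnmt1, -0.08 to 0.06 for Dnmt3a, -0.13 to 0.14 for Tet1, -0.15 to 0.02 for Tet2 and -1.93 to -0.83 for Morc1. Ratios that changed direction were Dnmt3b to Dnmt3a (-0.04 to 0.12), Dnmt3l to Dnmt3a (-1.73 to 0.14), and Dnmt3l (-0.57 to 0.87) and Morc1 (-1.54 to 0.09) to the germ cell markers, the third also with a pseudocount of 1 (0.07). With that pseudocount the difference of Dnmt1 to the markers was 0.78, and without WT replicate 2 it was 0.58.

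The number of genes past the threshold by FPKM was 4 without a filter and 3 with quantile normalization. By intronic reads it was 352 without a filter (with Morc1, adjusted p = 3.39e-14 in edgeR, as the 1 member), 1 with a mean of at least 50 reads and 2 with all loci inside a gene, exons included; the cause was not tested. With the replicate number as a block, 0 genes passed by FPKM and 1 by intronic reads, and Dnmt3a was 0.02 and Dnmt3b 0.07 by FPKM and Tet1 -0.01 by intronic reads. The correlations between same-numbered libraries differed in sign (0.198, -0.177 and 0.229). Leaving out both libraries whose names are joined in the header was chosen after seeing the data. It gave 489 genes by FPKM and 102 by intronic reads, 6 pathway genes and 1 member (Morc1) in each readout, Glis3 at -1.18 (adjusted p = 0.00822), Dnmt3b at 0.01 by FPKM and Dnmt1 at 0.08 by intronic reads. Dnmt3b was also 0.01 with quantile normalization or centring, and intronic reads gave 0.01 for Dnmt1 and Dnmt3a with a mean of at least 50 reads and -0.20 for Tet1 with exons included. With a mean of at least 2 FPKM, Dnmt3l was not tested. The depth behind FPKM is unknown, and 7 intronic reads in all cannot show a difference in Dnmt3l.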
